A study of Mus musculus with 18 samples.

Results

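The genes described here break down or build fatty acids, and they were taken as a list of 36 named genes, each read from the single-symbol probe set with the highest mean over 18 arrays. Of the 36 genes, 34 had such a probe set and all 34 passed the filter on dim signals, among 12258 genes tested of 18193 with a probe set in the whole series. The oxidation arm had 25 of its 26 genes measured, the synthesis arm 8 of 8, and Acot7, a cytosolic acyl-CoA thioesterase, was kept apart from both. Acsl1 and Ucp2 were not analysed here.

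Affymetrix M430v2 arrays measured the RNA of mouse CD4+ T cells taken from lymph node (LN), thymus or epididymal fat, with CD25+ cells (Treg) and CD25- cells (Tconv) sorted from each tissue and hybridised as 3 arrays per group, in 6 groups. LN cells came from C57Bl/6 mice of 32 to 36 weeks and fat cells from male C57Bl/6 mice of 25 to 35 weeks. Thymus cells came from mice of the BDC2.5/NOD background aged 4 to 6 weeks, a strain with a transgenic T cell receptor, and were depleted of CD8a cells before the sort. Every sort excluded B220, CD11b and CD8a cells, and the fat sort also required TCRb. An LN or thymus array held RNA of 3 to 6 mice and a fat array RNA of 8 to 10, so the spread between arrays is that between pools and may in part be technical.

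Fatty acids enter the cell through transport proteins, are tied to coenzyme A by acyl-CoA synthetases, and pass into the mitochondrion as carnitine esters. There the beta-oxidation cycle shortens them by dehydrogenation, hydration, a second dehydrogenation and thiolysis, and electron-transferring flavoprotein hands the electrons to the respiratory chain. Synthesis runs in the cytosol from citrate through acetyl-CoA and malonyl-CoA to palmitate, which elongases and desaturases of the endoplasmic reticulum then extend and unsaturate. Treg are known to draw on fatty acid oxidation more than activated conventional T cells do, and activated T cells on fatty acid synthesis.

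All values are intensities on one scale, made by quantile normalization of the 18 arrays together, because the deposited medians of the 6 fat arrays (76.9 to 82.2) lay above those of the other 12 (57.9 to 63.0). Calls of a higher or lower level rest on limma, at an adjusted p (Benjamini-Hochberg over the 12258 genes) under 0.05, a log2 change of 1 is a doubling, and errors of changes are standard errors (SE). The 5 Treg markers, Foxp3 among them, were called higher in Treg of every tissue. The fat arrays also carried transcripts of other cells. The summed intensity of 11 endothelial, stromal and mesothelial markers was 2557 to 7266 in fat against 520.2 to 602 elsewhere, and that of 12 macrophage and monocyte markers 893 to 3478 against 629 to 1035. The 8 adipocyte markers summed to 1795 to 3075 in fat against 365 to 428 elsewhere. Fabp4, a fatty acid binding protein, made up most of that sum, at means of 1984 in fat Tconv and 2084 in fat Treg. Adipoq, which encodes adiponectin, averaged 43.4 and 74.0 there, while Lep and Lipe lay at 43.2 to 44.7 in fat, beside 44.3 to 48.9 in the other tissues. Between fat Treg and fat Tconv no tested marker of these 3 lists was called in limma, but most lay on the higher side in Treg. Of 9 tested macrophage markers 8 did, with a median of 0.49 beside 0.00 over all genes, among them Lyz2 (means of 392 in Treg and 194 in Tconv) and Adgre1 (407 and 199). Of the stromal markers 5 of 7 did (median 0.25) and of the adipocyte markers 3 of 3 (median 0.10). The Treg effect of the macrophage markers was larger in fat than in LN for 9 of 9 (median 0.48, beside 0.03 over all genes). In limma 6 stromal, 8 macrophage and 2 adipocyte markers were called higher in fat Treg than in LN Treg. LN and thymus arrays carried markers of other cells too. The summed intensity of 4 B cell markers was 533 to 923 in LN against 232 to 398 elsewhere. Of 3 tested, Cd79b alone was called in Treg against Tconv, higher in LN (means of 193 and 96.7) and thymus (117 and 52.8). Klrd1 averaged 432 in LN Tconv and 68.4 in LN Treg. Gzma averaged 1185 in thymus Tconv and 4049 in thymus Treg, against 64.3 to 185 elsewhere. In such bulk samples, fewer cells of a type and less RNA per cell cannot be told apart, and the part of these other cells in the results below was not tested.

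Treg against Tconv was the comparison made within each tissue. In LN only Acot7 was called, higher in Treg, which is 1 of 34 members where 3.26% of all genes were called higher and 1.34% lower. In thymus 4 members were called higher, Acot7, Acadl, Decr1 and Etfb, against 3.4% of all genes higher and 2.11% lower. In fat 5 members were called higher, Elovl6, Acot7, Etfb, Acadvl and Elovl5, against 6.84% of all genes higher and 5.91% lower. No member was called lower in Treg of any tissue, and at an unadjusted limma p under 0.05 there was 1 lower in LN and none in thymus or fat. The median log2 change of the oxidation arm was 0.01 in LN, 0.08 in thymus and 0.13 in fat, beside medians of all genes of -0.03, -0.02 and 0.00. For the synthesis arm the medians were 0.06, 0.20 and -0.01. Arrays that share a replicate number within a tissue deviated together from their group means. With that number as a block, LN had 3 members called, Acot7 with Decr1 higher (0.63, adjusted p = 0.0334) and Acadm lower (-0.51, adjusted p = 0.0121). They are 8.82% of the members, and 8.82% of all genes were called in that fit. In fat the block gave 8, adding Slc25a20 (0.47, adjusted p = 0.00754) and Etfdh (0.53, adjusted p = 0.0227) as higher and Acaa1a (-0.35, adjusted p = 0.0315) as lower, which is 23.5% of the members beside 23.1% of all genes. In thymus it added Acaca (0.70, adjusted p = 0.0126) and Eci1 (0.42, adjusted p = 0.0438), both higher, for 17.6% of the members beside 13.4% of all genes.

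**Figure D1:**
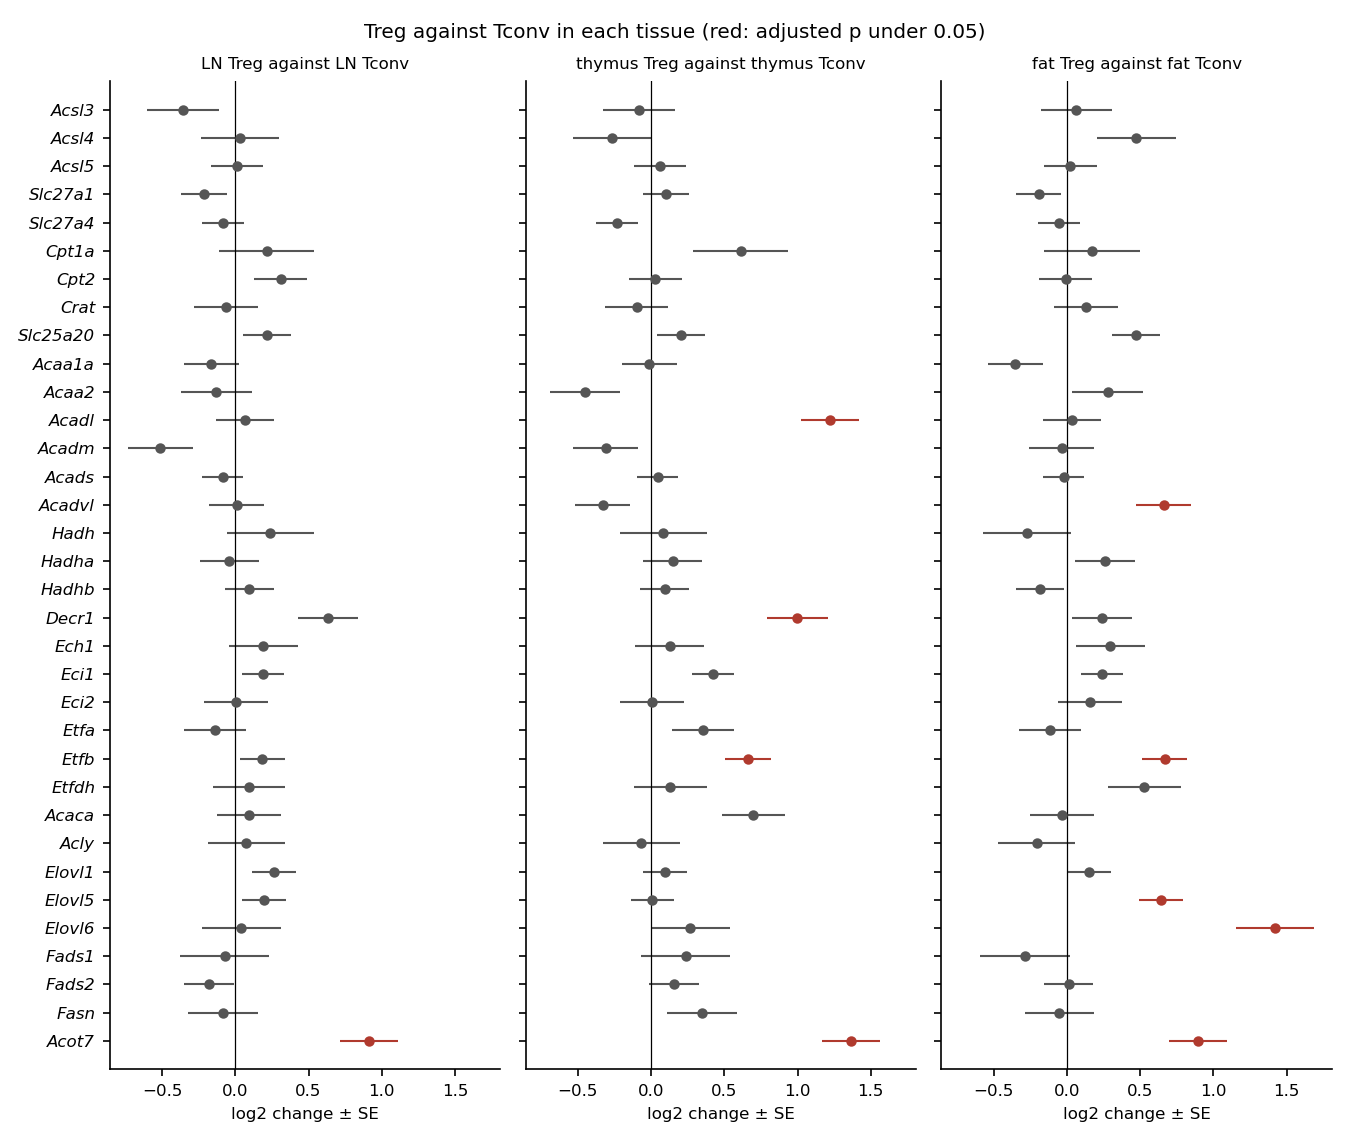
Log2 change of Treg against Tconv (x axis) with its SE for each of the 34 measured members (y axis), 1 panel per tissue, red where the adjusted p is under 0.05. Acot7 is red in all 3 panels, Acadl and Decr1 in thymus, Acadvl, Elovl5 and Elovl6 in fat, and Etfb in thymus and fat.

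Fat against LN was compared separately in Treg and in Tconv. In Treg 9 members were called higher, where 16% of all genes were, and 2 lower, where 19.3% were. The 9 were Acot7, Elovl6, Cpt1a, Etfb, Acadl, Ech1, Elovl5, Acadvl and Acads, and the 2 were Cpt2 and Acaa1a. In Tconv 4 were called higher, Acot7, Cpt1a, Acadl and Acads, against 11% of all genes, and Cpt2 alone lower, against 12.3%. The oxidation arm had median changes of 0.19 in Treg and -0.04 in Tconv, and the synthesis arm 0.15 and 0.21, beside -0.01 and -0.04 over all genes. On the deposited scale the median of all genes itself was 0.37 in Treg and 0.33 in Tconv. The members called there were 18 higher and 1 lower in Treg and 16 higher and 0 lower in Tconv. Among them were Slc27a4, Crat, Hadh, Hadhb, Acly, Acaca and Fads2, each in Treg, in Tconv or in both and none of them called on the one scale without a block. The share of higher calls among all called genes went from 45.4% to 83.2% in Treg and from 47.3% to 90.3% in Tconv. Among the fat arrays, replicate 1 of both cell types held the highest Dcn and Adipoq. Both arrays together are named fat pool 1 here, although the labels do not say that they came from the same mice. Without both, 3 members were called in fat Tconv against LN Tconv. Ech1 (0.77, adjusted p = 0.045) was gained there and Cpt1a, Acads and Cpt2 were lost. Taking the 5 runs of consecutive array file numbers as a block raised the calls among all genes as well. In Tconv it gave 10 members, 7 higher and 3 lower, or 29.4% beside 33.3% of all genes. In Treg it gave 14 members, 11 higher and 3 lower, or 41.2% beside 45.9% of all genes. For every called member the fat arrays did not overlap the LN arrays of the same cells. Each of the 3 runs that held both tissues therefore had to show the overall sign, which is no separate evidence.

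**Figure D2:**
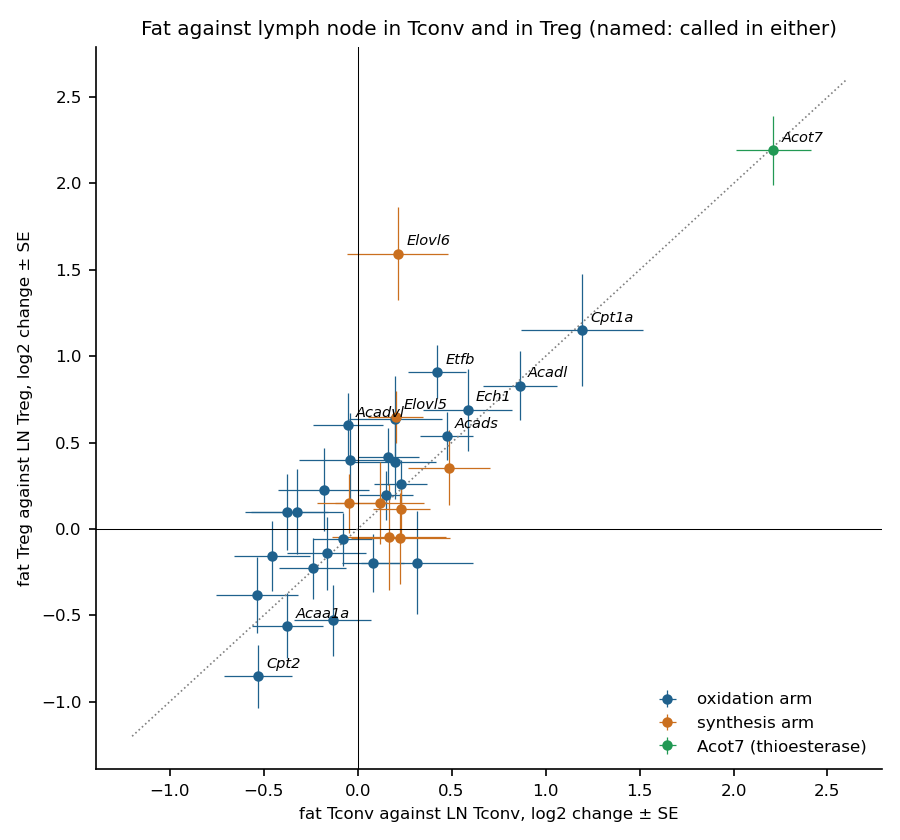
Log2 change of fat against LN in Tconv (x axis) and in Treg (y axis) for each measured member, with SE bars, a dotted line of equal change and names for members called in either. Acot7, Cpt1a, Acadl and Acads lie near the line and Elovl6 lies farthest above it, at 0.21 in Tconv and 1.59 in Treg.

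The Treg effect (Treg minus Tconv) was also compared between tissues. Between fat and LN 1 member was called, Elovl6, where 5.34% of all genes were called in either direction, and that call was lost under 4 alternatives and without any 1 of 12 arrays. At an unadjusted limma p under 0.05 it was larger in fat for 4 members, Elovl6, Acadvl, Etfb and Elovl5. Between thymus and LN no member was called in limma, where 0.351% of all genes were, and 2 members, Acadl and Etfb, had an unadjusted p under 0.05. With the replicate block Acadl was called there (1.15, adjusted p = 0.0361), where 1.12% of all genes were. So a member called in Treg of 1 tissue and not in another is, apart from Elovl6 and, with the block, Acadl, not shown to differ between tissues. For Acadl, the thymus and LN mice also differed in strain and age, which cannot be told apart from the tissue.

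Thymus against LN differs in strain and age as well as in tissue, and these cannot be told apart. In Treg 2 members were called higher, Acot7 and Etfb, against 6.51% of all genes, and 3 lower, Acadl, Eci1 and Elovl1, against 6.03%. In Tconv none was called higher in limma, against 4.66% of all genes, and 2 were at an unadjusted p under 0.05, Acaa2 and Acot7. Lower in thymus Tconv were 3 members, Acadl, Cpt1a and Eci1, against 4.7% of all genes. The oxidation arm had medians of 0.02 in Treg and -0.02 in Tconv and the synthesis arm 0.12 and -0.13, beside 0.00 and -0.01 over all genes. Of 5 tested markers of immature thymocytes, 3 were called higher in thymus Treg and 2 in thymus Tconv than in LN. Dntt had means of 1656 and 2592 in thymus Tconv and Treg against 356 and 109 in LN, while Cd8a, by which cells were depleted, had 92.2 and 90.7 against 127 and 119. The part of such cells in the result was not tested. In Treg 3 members were called rather than 5 on the deposited scale, on arrays centred on their medians, or with the array run as a block, and 2 with the other groups left out of the fit. In the 1 run that held both tissues, all 8 calls had the sign of the overall change. Except for Cpt1a in Tconv the groups did not overlap, so that sign was fixed beforehand and is no separate evidence.

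**Figure D3:**
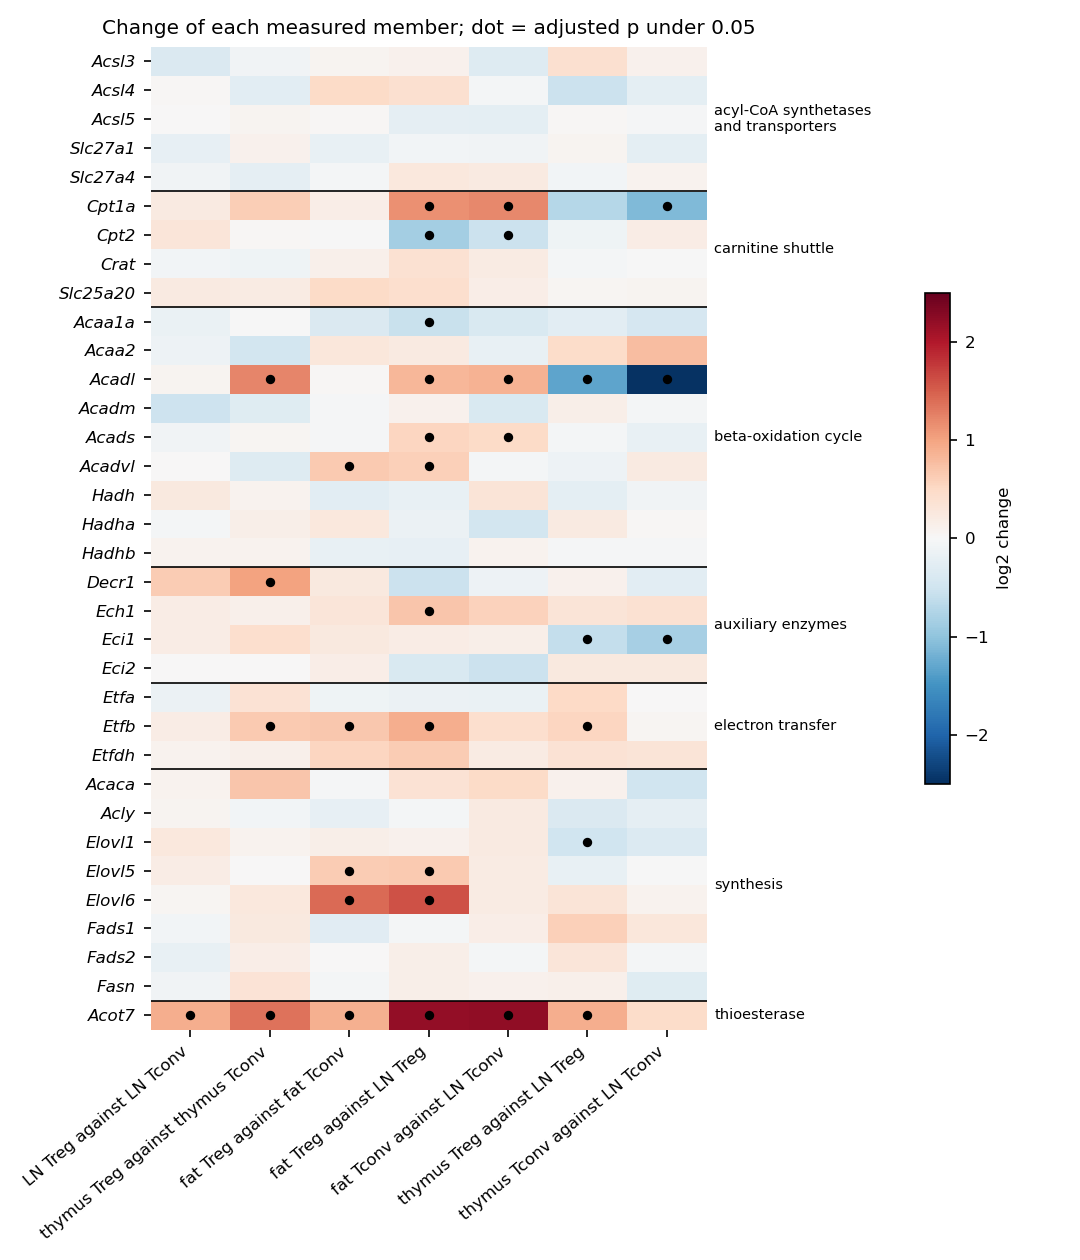
Log2 change (colour, from blue for lower to red for higher) of each of the 34 measured members (rows, by step of the pathway) in the 7 comparisons of 2 groups (columns), with a dot where the adjusted p is under 0.05. Acot7 has a dot in 6 of 7 columns and Acadl in 5, and no dot stands in the rows of the acyl-CoA synthetases and transporters.

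Uptake and activation came first in order of role. Slc27a1 and Slc27a4 encode fatty acid transport proteins, and Acsl3, Acsl4 and Acsl5 the long-chain acyl-CoA synthetases. None of these 5 genes was called in limma on the one scale in any comparison of 2 groups, with changes between -0.55 and 0.47. Both ends of that range were Acsl4 values, in thymus Treg against LN Treg and in fat Treg against fat Tconv. The probe sets of Acsl4, which prefers arachidonic acid, disagreed. A dimmer set changed by 1.94 ± 0.22 in fat Treg and 2.24 ± 0.22 in fat Tconv against LN, while the set used changed by 0.40 ± 0.27 and -0.04 ± 0.27. The mean of the Acsl4 sets was called higher in fat in both cell types, at 0.83 in each, with adjusted p = 0.00274 in Treg and 0.00459 in Tconv. Acsl3 also disagreed, at 0.10 ± 0.24 for the set used and -0.81 ± 0.28 for another in fat Treg against LN Treg.

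The carnitine shuttle moves acyl groups into the mitochondrion. Cpt1a, the outer-membrane carnitine palmitoyltransferase that limits the rate of entry, had intensities of 216, 295 and 107 in LN Tconv, 234, 269.5 and 169 in LN Treg, 499, 469 and 349 in fat Tconv, and 458, 636 and 400.1 in fat Treg. All 6 fat arrays lay above all 6 LN arrays. In fat it was 2.22-fold higher in Treg (log2 1.15 ± 0.33, adjusted p = 0.0106) and 2.29-fold higher in Tconv (1.20 ± 0.33, adjusted p = 0.0126). Both calls depend on single arrays, with the adjusted p at 0.054 in Treg without fat Treg replicate 2 and at 0.0518 to 0.0766 in Tconv without LN Tconv replicate 3 or fat Tconv replicate 1. Without both arrays of fat pool 1 the Tconv change was 1.09 (adjusted p = 0.0603). The other probe sets of Cpt1a gave 0.96 and 1.58 in Treg and 0.57 and 1.63 in Tconv. In thymus Cpt1a read 85.3, 73.3 and 108 in Tconv and 126, 197 and 96.5 in Treg. It was lower in thymus Tconv than in LN Tconv (-1.11 ± 0.33, adjusted p = 0.0394), although 1 thymus array exceeded the lowest LN array, and the call was lost under 5 alternatives and without LN Tconv replicate 1 or 2 or thymus Tconv replicate 1 or 2 (adjusted p = 0.112 to 0.219).

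Cpt2, the inner-membrane enzyme that restores the acyl-CoA, went the other way in fat. Its intensities were 124, 127 and 101 in LN Tconv, 142, 145 and 147 in LN Treg, 64.7, 91.2 and 88.9 in fat Tconv, and 68.4, 79.1 and 94.9 in fat Treg. Every fat array lay below every LN array. In Treg Cpt2 was 1.80-fold lower in fat (-0.85 ± 0.18, adjusted p = 0.00145). In Tconv it was 1.45-fold lower (-0.53 ± 0.18, adjusted p = 0.0427), a call lost under 5 alternatives. It was also lost, at adjusted p = 0.052 to 0.198, without any 1 of 8 arrays: LN Tconv and LN Treg replicates 1 and 2, fat Tconv replicates 1 and 3, fat Treg replicate 2 or thymus Tconv replicate 3. On the deposited scale the Tconv change was -0.14 (adjusted p = 0.516). With the mean of its 2 probe sets Cpt2 did not pass the filter on dim signals, so neither call was tested in that setting. Thymus arrays read 161, 109 and 130.1 in Tconv and 146, 110.0 and 151 in Treg, within or near the LN range. Slc25a20, the carnitine-acylcarnitine carrier between both enzymes, lay higher in every fat Treg array than in every LN Treg or fat Tconv array, without passing the test (0.42, adjusted p = 0.0559, and 0.47, adjusted p = 0.0722). Both changes passed it with the array run as a block (adjusted p = 0.007 and 0.00774) or with the mean of its probe sets (0.0161 and 0.0266). The former also did on the deposited scale (0.00398), and the latter with the replicate block (0.00754). Crat, carnitine acetyltransferase, changed by 0.39 in fat Treg against LN Treg without passing the test (adjusted p = 0.178), and was called higher in fat only on the deposited scale, in Treg (adjusted p = 0.00422) and Tconv (0.0201).

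In the beta-oxidation cycle the first dehydrogenation is made by acyl-CoA dehydrogenases that differ in chain length. Acadl, the long-chain enzyme, had the largest change of any member in the 7 comparisons of 2 groups. It read 83.0, 86.9 and 94.1 in thymus Tconv, 218, 264 and 149.9 in thymus Treg, 566, 496 and 406 in LN Tconv, and 550.2, 554 and 432 in LN Treg. In fat it read 694, 1077 and 918 in Tconv and 873, 926 and 913 in Treg. The order thymus, LN, fat had no overlap between tissues, and within thymus no overlap between Tconv and Treg. In thymus Acadl was 2.33-fold higher in Treg than in Tconv (1.22 ± 0.20, adjusted p = 0.000774). In Tconv it was 5.52-fold lower in thymus than in LN (-2.46 ± 0.20, adjusted p = 3.08e-07), and in Treg 2.48-fold lower (-1.31 ± 0.20, adjusted p = 0.000235). In fat it was 1.78-fold higher in Treg (0.83 ± 0.20, adjusted p = 0.00341) and 1.82-fold higher in Tconv (0.86 ± 0.20, adjusted p = 0.00411) than in LN. In LN and in fat the Treg effect was 0.07 and 0.04. On arrays centred on their medians the fat Treg call was lost (0.69, adjusted p = 0.0573). A further Acadl set was dim in every group (22.1 to 34.1, under the median of all values of 65.5) and gave no thymus change of that size, at 0.02 in Tconv and -0.18 in Treg.

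Acads, the short-chain enzyme, read 168, 134 and 187 in LN Tconv, 163, 144 and 150.1 in LN Treg, 230.2, 199 and 246 in fat Tconv, and 231, 209 and 223 in fat Treg. The fat arrays lay above all LN arrays, by 0.54 ± 0.14 in Treg (adjusted p = 0.00644) and 0.47 ± 0.14 in Tconv (adjusted p = 0.0207). Without both arrays of fat pool 1 the Tconv call was lost (0.46, adjusted p = 0.0652), and centring each array on its median ended both calls, at adjusted p = 0.056 and 0.0525. The Tconv call was also lost without LN Tconv replicate 2 or fat Tconv replicate 1 or 3 (adjusted p = 0.0586 to 0.12). Thymus arrays read 131 to 163.

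Acadvl, the very-long-chain enzyme of the inner membrane, was high in fat Treg alone among the groups. Its intensities were 656, 539 and 547 in fat Treg, 275, 457 and 389 in fat Tconv, 354, 326 and 481 in LN Treg and 404, 368 and 366 in LN Tconv. Each fat Treg array lay above every other array of the study, thymus (286 to 474) included. The change was 0.66 ± 0.19 against fat Tconv (adjusted p = 0.026) and 0.60 ± 0.19 against LN Treg (adjusted p = 0.0196). Without both arrays of fat pool 1 the change against fat Tconv was 0.36 (adjusted p = 0.321), and with centred arrays the adjusted p was 0.0842 against fat Tconv and 0.139 against LN Treg. The first call was also lost without fat Tconv replicate 1 or fat Treg replicate 1 or 3 (adjusted p = 0.0525 to 0.117), and the second without LN Treg replicate 1 or 2 or fat Treg replicate 1 (0.0689 to 0.0956).

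Acaa1a, a peroxisomal thiolase, was lower in fat Treg than in LN Treg (-0.56 ± 0.19, adjusted p = 0.0276), but not on the deposited scale (-0.31, adjusted p = 0.0936) or without LN Treg replicate 3 or fat Treg replicate 3 (adjusted p = 0.125 to 0.158). In fat Tconv against LN Tconv it was called lower on centred arrays (-0.43, adjusted p = 0.036) and with the array run as a block (-0.37, adjusted p = 0.0293). With the mean of its sets Acaa1a was called lower in fat Treg than in fat Tconv (-0.54, adjusted p = 0.0293). Acadm, the medium-chain dehydrogenase, and Acaa2, the mitochondrial thiolase, were not called on the one scale with all 18 arrays and no block. Acadm was lower in LN Treg with the replicate block, as given above. Acaa2 lay higher in every thymus Tconv array than in every LN Tconv array (0.78, adjusted p = 0.0544), and was called under 3 alternatives, at adjusted p = 0.0474 without both arrays of fat pool 1. Hadha and Hadhb, the subunits of the trifunctional protein, and Hadh, the short-chain hydroxyacyl-CoA dehydrogenase, were not called there either. The lowest of their changes was that of Hadha in fat Tconv against LN Tconv (-0.46, adjusted p = 0.118), which was called with the array run as a block (adjusted p = 0.0243).

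Auxiliary enzymes deal with double bonds. Decr1, the mitochondrial dienoyl-CoA reductase, read 176, 159.7 and 229.5 in thymus Tconv and 451, 303 and 377 in thymus Treg, without overlap, a 2.00-fold difference (1.00 ± 0.21, adjusted p = 0.00575). In LN it read 224, 229 and 216 in Tconv and 386, 388 and 277 in Treg, also without overlap, but the change of 0.63 ± 0.21 did not pass the test (adjusted p = 0.114). In fat the groups overlapped, at 146, 262 and 221 in Tconv and 239, 241 and 239 in Treg. Every fat Treg array lay below every LN Treg array (-0.53 ± 0.21, adjusted p = 0.0548), and with the mean of both Decr1 sets that change was called (-0.65, adjusted p = 0.00218). Eci1, the mitochondrial enoyl-CoA isomerase, was low in thymus. It read 99.7, 97.0 and 115 in thymus Tconv and 158, 125 and 136 in thymus Treg, against 206, 164 and 186 in LN Tconv and 226, 219.8 and 188 in LN Treg, with no overlap between tissues. In Tconv it was 1.78-fold lower (-0.84 ± 0.14, adjusted p = 0.000794) and in Treg 1.52-fold lower (-0.60 ± 0.14, adjusted p = 0.00903), the latter at adjusted p = 0.0654 with the array run as a block. Fat arrays read 178 to 253, across the LN range. Ech1, a dienoyl-CoA isomerase, was higher in fat Treg than in LN Treg (0.69 ± 0.24, adjusted p = 0.0307), with an adjusted p of 0.176 on centred arrays and a call lost, at 0.0609 to 0.11, without any 1 of the LN Treg arrays or fat Treg replicate 2 or 3. Eci2, the peroxisomal and mitochondrial isomerase, was not called, and its largest change was -0.54 in fat Tconv against LN Tconv (adjusted p = 0.0872).

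Electron transfer from the acyl-CoA dehydrogenases runs through Etfa and Etfb, the subunits of the flavoprotein, and Etfdh, its ubiquinone oxidoreductase. Etfb read 934, 953 and 1007 in fat Treg and 575, 680.0 and 569.9 in fat Tconv. It read 882, 674 and 684 in thymus Treg against 492, 439.6 and 475 in thymus Tconv. In LN it read 614, 552 and 399 in Treg and 476, 429.8 and 452 in Tconv, the only tissue in which the groups overlapped. The Treg effect was 0.67 ± 0.15 in fat (adjusted p = 0.00622), 0.66 ± 0.15 in thymus (adjusted p = 0.0136) and 0.18 in LN, and the test of fat against LN gave 0.49 ± 0.22 (adjusted p = 0.3). Against LN Treg, Etfb was 1.88-fold higher in fat Treg (0.91 ± 0.15, adjusted p = 0.000197) and 1.44-fold higher in thymus Treg (0.53 ± 0.15, adjusted p = 0.0305). In Tconv every fat array also lay above every LN array (0.42), a change not called on the one scale without a block. That Tconv change was called with the array run as a block (adjusted p = 0.0276) and as deposited (0.75, adjusted p = 0.00542), among other settings. On the deposited scale the thymus calls were lost, at adjusted p = 0.0557 for the Treg effect and 0.0757 against LN. They were also lost without thymus Treg replicate 1, the former without thymus Tconv replicate 2 too (adjusted p = 0.0709 to 0.0865) and the latter without LN Treg replicate 3 (0.165 to 0.166). Etfa was not called, and Etfdh lay higher in every fat Treg array than in every LN Treg or fat Tconv array without passing the test (0.63, adjusted p = 0.0562, and 0.53, adjusted p = 0.217). The change of Etfdh against LN Treg passed it with the array run as a block (adjusted p = 0.0124), on the deposited scale (0.016) and with the mean of its sets (0.0117), and the change against fat Tconv with the replicate block (0.0227). With the mean of its sets Etfdh was also called higher in fat Tconv than in LN Tconv (0.37, adjusted p = 0.0476).

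**Figure D4:**
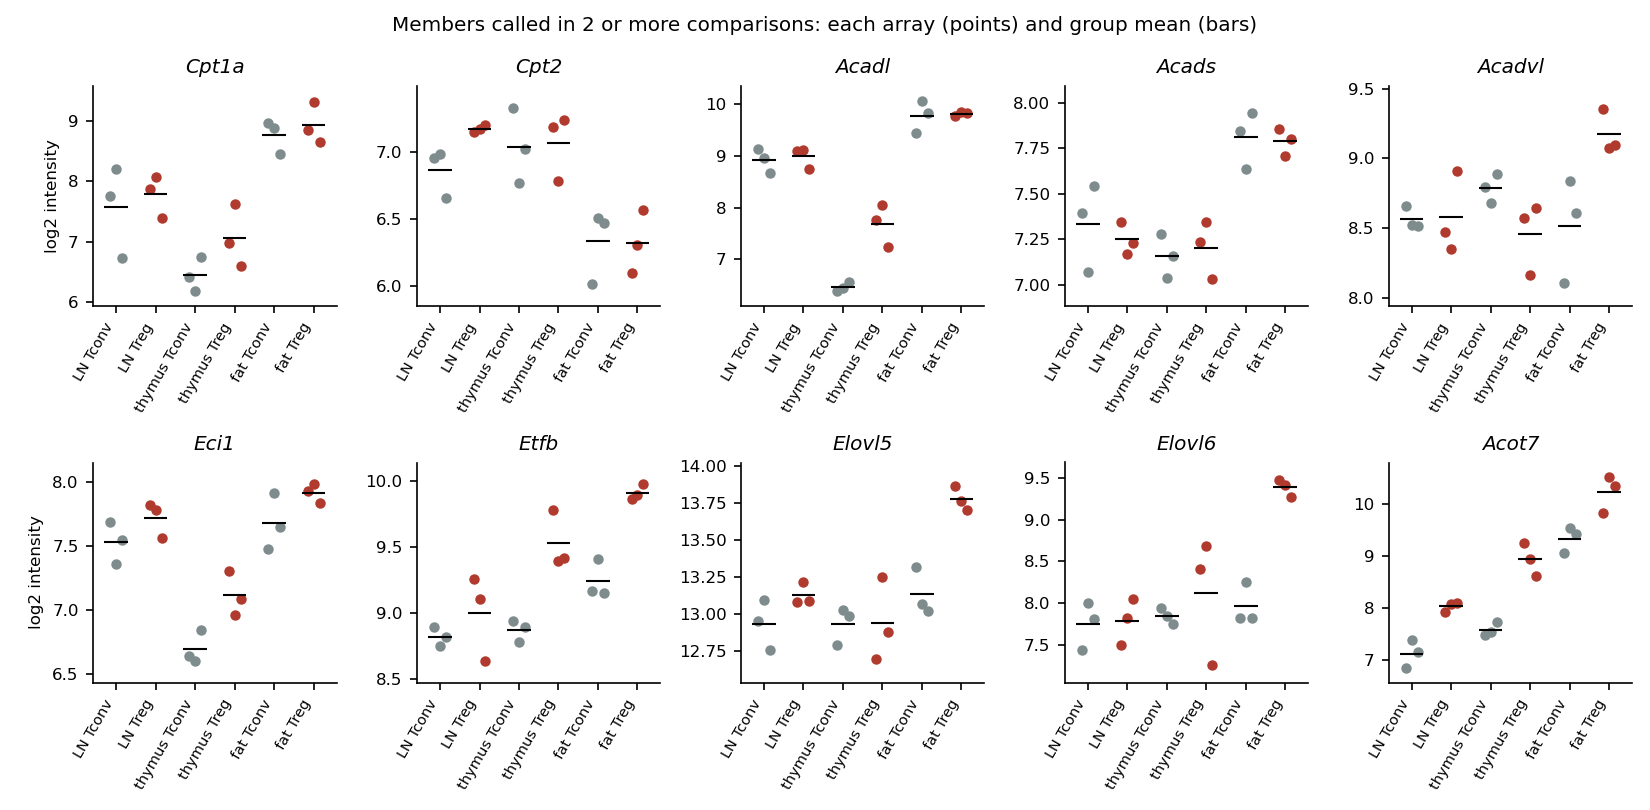
Log2 intensity (y axis, a separate range in each panel) of every array (points) with the group mean (bars) for the 10 members called in at least 2 comparisons, Tconv in grey and Treg in red. Acadl is lowest in thymus Tconv and highest in fat, Cpt2 is lowest in fat, and the 3 fat Treg arrays of Acadvl, Elovl5 and Elovl6 stand above all others.

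The synthesis arm begins with Acly, which splits citrate into acetyl-CoA, Acaca, which makes malonyl-CoA, and Fasn, the fatty acid synthase. None of these 3 was called in limma on the one scale without a block, with changes between -0.49 and 0.70, both of Acaca. The upper value was thymus Treg against thymus Tconv (adjusted p = 0.0776), where the arrays overlapped. Fads1 and Fads2, the delta-5 and delta-6 desaturases, were not called either, with changes between -0.29 and 0.59, both of Fads1. In thymus Treg 1 array set the spread of this arm. All 8 synthesis members lay below their group mean in thymus Treg replicate 3, with a median log2 deviation of -0.62, and all 8 above it in replicate 2, with a median of 0.38. Of the other arrays of that run of file numbers, 8 of 8 members lay below the mean in LN Treg and in fat Tconv, 7 of 8 in LN Tconv and in fat Treg, and 5 of 8 in thymus Tconv, with medians of -0.24 to -0.04. Taking the run as a block added the synthesis member Acaca alone to the calls, in thymus Treg against thymus Tconv (0.70, adjusted p = 0.0115) and in fat Tconv against LN Tconv (0.49, adjusted p = 0.0292).

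Elongases lengthen the chains. Elovl6, which extends palmitate to stearate, read 710.3, 683 and 617 in fat Treg and 227, 304 and 226 in fat Tconv. In LN it read 182, 226 and 266 in Treg and 174, 256 and 225 in Tconv. In thymus it read 339.6, 411 and 154 in Treg and 247, 230.0 and 216 in Tconv. The 3 fat Treg arrays lay above all 15 others, and the remaining groups overlapped one another. Elovl6 was 2.68-fold higher in fat Treg than in fat Tconv (1.42 ± 0.27, adjusted p = 0.00126) and 3.02-fold higher than in LN Treg (1.59 ± 0.27, adjusted p = 0.00019). In LN the Treg effect was 0.04, and the difference between both effects was 1.38 ± 0.38 (adjusted p = 0.0414). This last call was lost under 4 alternatives, with adjusted p up to 0.14, and, at 0.0518 to 0.111, when any 1 of 12 arrays was left out, whereas the calls against fat Tconv and LN Treg held throughout. The 12 were the 3 fat Treg and 3 thymus Tconv arrays, replicates 1 and 3 of fat Tconv, 2 and 3 of LN Tconv, and 1 and 2 of LN Treg. Another Elovl6 set above the median of all values gave 1.28 ± 0.26 against fat Tconv and 0.97 ± 0.26 against LN Treg.

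Elovl5, which extends polyunsaturated chains, read 14911, 13885 and 13310.4 in fat Treg, 10214, 8563 and 8304 in fat Tconv, 8642, 9515 and 8713 in LN Treg and 7918, 8749.5 and 6894 in LN Tconv. Every fat Treg array again lay above every other array, thymus (6621 to 9749) included. The change was 0.64 ± 0.15 against fat Tconv (adjusted p = 0.00636) and 0.65 ± 0.15 against LN Treg (adjusted p = 0.0025), and the second Elovl5 set gave 1.09 ± 0.24 and 1.02 ± 0.24. Elovl1, which extends saturated very long chains, read 572, 511 and 414 in thymus Treg and 695, 742 and 673 in LN Treg. It was 1.42-fold lower in thymus (-0.51 ± 0.15, adjusted p = 0.0336), a call lost under 4 alternatives and, at adjusted p = 0.0623 to 0.127, without any 1 of the LN Treg arrays or thymus Treg replicate 2 or 3. In fat Treg against LN Treg its change of 0.12 was not called and turned to -0.01 on centred arrays.

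**Figure D5:**
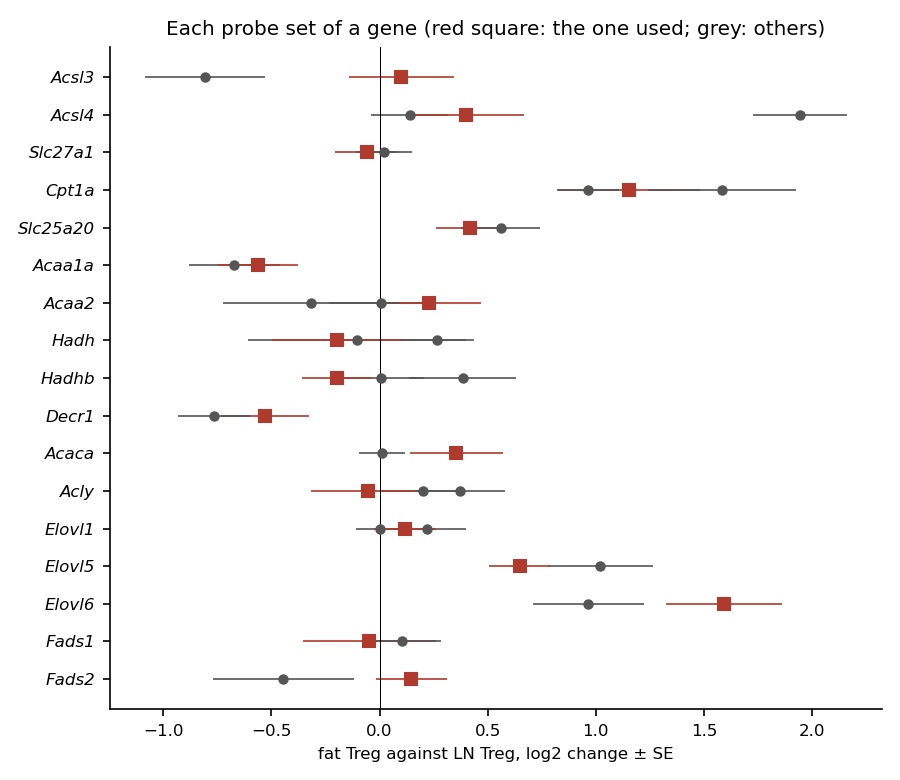
Log2 change of fat Treg against LN Treg with its SE (x axis) for each probe set of the members that have at least 2 sets above the median of all values (y axis), with a red square for the set used and grey points for the others. The sets of Cpt1a, Elovl5 and Elovl6 lie to the right of 0 and those of Decr1 and Acaa1a to the left, while those of Acsl3 and Acsl4 spread widely.

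Acot7, which releases free fatty acids from acyl-CoA in the cytosol, was called in 6 of the 7 comparisons of 2 groups. It read 115, 165 and 141 in LN Tconv, 242, 271 and 274 in LN Treg, 177, 184 and 211 in thymus Tconv and 608, 493 and 392 in thymus Treg. In fat it read 529, 740.1 and 679 in Tconv and 902, 1456 and 1303 in Treg. In each tissue the 3 Treg arrays lay above the 3 Tconv arrays, and each fat group above the same cells of LN. The Treg effect was 0.91 ± 0.20 in LN (adjusted p = 0.00988), 1.37 ± 0.20 in thymus (adjusted p = 0.000289) and 0.90 ± 0.20 in fat (adjusted p = 0.00485). The LN call was lost without LN Tconv replicate 1 (adjusted p = 0.066). Fat exceeded LN 4.57-fold in Treg (2.19 ± 0.20, adjusted p = 2.11e-07) and 4.63-fold in Tconv (2.21 ± 0.20, adjusted p = 4.71e-07). Thymus Treg exceeded LN Treg 1.87-fold (0.90 ± 0.20, adjusted p = 0.0054), and Acot7 is read by 1 probe set only.

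Of 98 other genes of or near these pathways, 93 were measured and 76 tested. In Treg against Tconv, 3 were called higher and 2 lower in LN, 3 and 3 in thymus, and 8 and 3 in fat. The shares of all genes given above for these comparisons were 3.26% and 1.34%, 3.4% and 2.11%, and 6.84% and 5.91%. Slc22a5, the plasma membrane carnitine transporter, led in LN (1.38 ± 0.18, adjusted p = 0.000117), and Crot, the peroxisomal carnitine octanoyltransferase, was lowest in fat (-1.07 ± 0.22, adjusted p = 0.00223). Pparg, a nuclear receptor that drives lipid genes, led in fat (3.40 ± 0.25, adjusted p = 3.62e-08). For fat against LN, 10 were called higher and 14 lower in Treg, where 16% and 19.3% of all genes were, and 7 and 15 in Tconv, where 11% and 12.3% were. The median over the 76 was -0.12 in Treg and -0.16 in Tconv, beside -0.01 and -0.04 over all genes. A list of 20 other tested genes, mostly of mitochondrial oxidation, also held Slc22a5 of the plasma membrane and genes of amino acid, propionate and acetate use. It is therefore not a measure of fatty acid oxidation alone. Of these 20, none was called higher in fat in limma (1 in Treg and 0 in Tconv at an unadjusted p under 0.05). Called lower in fat were 8 in Treg (median -0.52) and 5 in Tconv (median -0.47). Scd2, a stearoyl-CoA desaturase, fell from a mean of 2249 in LN Treg to 291 in fat Treg (-2.95 ± 0.18, adjusted p = 2.03e-09), and from 1743 to 517 in Tconv. Hacd3, a dehydratase of the elongation cycle in which Elovl5 and Elovl6 act, was higher in fat Treg than in fat Tconv (1.84 ± 0.23, adjusted p = 1.49e-05). Against LN, 5 were called higher and 8 lower in thymus Treg (6.51% and 6.03% of all genes), and 5 and 7 in thymus Tconv (4.66% and 4.7%). Hacd1, another dehydratase of the elongation cycle, led in thymus Treg (3.61 ± 0.48, adjusted p = 7.87e-05), at a mean of 489 against 31.4 in LN Treg. It also led in thymus Tconv (2.45 ± 0.48, adjusted p = 0.00272). Acss2, which makes acetyl-CoA from acetate, was lowest in thymus Treg (-1.30 ± 0.18, adjusted p = 0.000102).

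Promoter sequences of 30 of the 34 measured members were matched in RefSeq (GRCm38.p6), 33 promoters in all, each from 250 bases before to 50 after the start. On both strands, TCACNCCAC (sterol regulatory element), AGGTCANAGGTCA (direct repeat read by PPAR with RXR) and TCAAGGTCA (estrogen-related receptor element, which shares AGGTCA with the repeat) were each in 0 of 33. Among all 32851 promoters of that length they were in 1.24%, 0.0396% and 0.423%. With shares this low, 0 of 33 was likely for any 33 promoters and says nothing particular about these members. CCAAT, read by NF-Y, was in 15 of the 33 (45.5%), against 37.4% of all promoters. A match is a description of letters, not a site in use. The 150 bases before the start are shown for 3 members called higher in fat Treg than in LN Treg that hold CCAAT, with CCAAT or its reverse ATTGG in capitals:
Elovl5, chr9:77917215-77917364, + strand: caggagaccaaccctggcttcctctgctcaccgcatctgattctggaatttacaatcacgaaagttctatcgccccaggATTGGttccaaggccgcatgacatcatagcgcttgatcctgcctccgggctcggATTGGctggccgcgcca
Etfb, chr7:43443922-43444071, + strand: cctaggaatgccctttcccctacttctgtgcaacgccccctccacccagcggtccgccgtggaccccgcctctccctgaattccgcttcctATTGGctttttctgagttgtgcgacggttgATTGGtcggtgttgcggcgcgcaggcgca
Cpt1a, chr19:3323151-3323300, + strand: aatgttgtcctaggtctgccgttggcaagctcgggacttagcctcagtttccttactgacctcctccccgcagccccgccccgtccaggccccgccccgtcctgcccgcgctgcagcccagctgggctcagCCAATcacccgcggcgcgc
Elovl5 and Etfb hold the motif as ATTGG, each at 2 places, and Cpt1a once as CCAAT. The motif nearest the start began 17 bases before it in Elovl5, 29 in Etfb and 19 in Cpt1a.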

How the data were processed

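Per the labels, RNA was amplified in 2 rounds before biotin labelling, and the authors made the deposited values with RMA, as linear probe set intensity; the software version and which arrays were normalized together are not given in the sources used here. Of 45101 probe sets, 64 were controls, 34945 had 1 symbol in the platform annotation, 932 several and 9160 none. Intensities were quantile-normalized over all 18 arrays and taken to log2. A gene was read from its single-symbol probe set with the highest mean and kept where at least 1 group mean exceeded the median of all values (65.5), which left 12258 genes. Levels of different genes were not compared, since probes differ in brightness.

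The fit used lmFit and eBayes of limma 3.58.1 under R 4.3.3 on log2 values, with all 6 groups in one model, so that comparisons share 1 estimate of spread per gene (12 residual and 4.93 prior degrees of freedom). Adjusted p-values are Benjamini-Hochberg over all genes tested, and the procedure was tested on simulated data. Comparisons with LN share the LN arrays. For arrays, 3 per group limit the precision. With 3 against 3, an exact permutation test could not reach 0.05, so none was run.

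The members, lists, arms and the rule for named genes were chosen with earlier results of these data known. The rule gives per-array values for the 5 largest called changes in each comparison and names at most 2 other pathway genes per direction. Same-numbered Treg and Tconv arrays of a tissue deviated together (r 0.355 to 0.661 in 9 pairs, over genes), and those of fat and LN did not (-0.437 to 0.0939). The 9 pairs also shared an array run, so pair and run cannot be told apart there. Fat and LN arrays of the same run gave r of -0.0354 to 0.404. The main fit used no block, and pairs entered only in the alternative with the replicate block. Array runs are file numbers less than 20 apart in the labels. Alternatives were other scales, filters, probe set rules, blocks, a variance trend, only the groups compared and each array left out; leaving out both arrays of fat pool 1 was added after seeing the data.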

Additional observations from a re-analysis of the deposited data

Results flagged for a closer look

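The Treg effect on Elovl6 differed between fat and LN by 1.38 on the log2 scale (SE 0.38, adjusted p = 0.0414 in limma), by a test of the difference itself. The effect was 1.42 in fat and 0.04 in LN, and every fat Treg array lay above every fat Tconv array. The call was lost under 4 alternatives, with adjusted p up to 0.14, and without any 1 of 12 of the 18 arrays. No explanation was tested.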

How the results depend on the processing

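Of 35 calls of a member in a comparison, 20 held under every alternative in which they were tested, other than leaving out an array. Whichever array was left out 21 held, 18 held under all of these, and none changed sign. Cpt2 in fat Treg against LN Treg counts among the 20 and the 18, although it was not tested with the mean of probe sets. Counts moved by over 1.5 times as follows, and the cause was not tested. With the replicate block, LN Treg against Tconv gave 3 for 1, fat 8 for 5 and the thymus minus LN Treg effect 1 for 0; the block moved no other count that far, but ended the Cpt2 call in fat Tconv against LN Tconv. With the array run as a block, the LN count was 2, fat Tconv against LN Tconv 10 for 5, thymus Treg against LN Treg 3 for 5, and the thymus minus LN Treg effect 1. As deposited, fat against LN gave 19 for 11 in Treg and 16 for 5 in Tconv, and thymus Treg against LN Treg gave 3; with centred arrays the last was 3 too. Fits of only the groups compared gave 3 in fat Tconv against LN Tconv and 2 in thymus Treg against LN Treg. Without both arrays of fat pool 1, fat Tconv against LN Tconv gave 3. Elovl6, the 1 member called in the fat minus LN Treg effect, left 0 as deposited, centred, unfiltered and without fat pool 1. Leaving out 1 array gave 0 to 2 calls in LN, 3 to 6 in thymus and 4 to 6 in fat for Treg against Tconv, 9 to 13 and 3 to 7 in fat against LN for Treg and Tconv, 3 to 7 and 2 to 4 in thymus against LN, and 0 to 1 in both Treg effects.

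Medians of the oxidation arm moved to 0.0912 in LN Treg against Tconv (centred). In fat Treg against LN Treg they were 0.52 as deposited, 0.0891 centred and 0.11 with the mean of probe sets; in fat Tconv, 0.30 as deposited and 0.0888 with the mean of sets. In thymus Tconv against LN Tconv they were 0.0486 as deposited, 0.0664 centred and 0.0390 with the mean of sets. Medians of the synthesis arm were 0.0979 centred and -0.0197 with the mean of sets in LN, 0.52 and 0.56 as deposited in fat Treg and Tconv against LN, and -0.14 centred for the fat minus LN Treg effect. Signs turned for uncalled members only: Elovl6 in thymus without thymus Treg replicate 2 (-0.0139; 0.70 at most without any other array), Elovl1 in fat Treg against LN Treg centred (-0.0144), and in fat Tconv against LN Tconv Acsl4 (0.29 as deposited, 0.83 with the mean of sets, 0.0609 without LN Tconv replicate 1, and from -0.17 to 0.0947 over all single arrays left out, the latter without fat Tconv replicate 2), Crat (-0.10 with the mean of sets, from -0.00745 without LN Tconv replicate 1 to 0.38) and Etfdh (from -0.0759 without LN Tconv replicate 3 to 0.43). The number of arrays, 3 per group, limits what could be called.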
